A study of Mus musculus with 8 samples.

Results

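The genes described here are 10 genes of pro-B and pre-B cells, the B-cell precursors of the bone marrow, measured in cells sorted from the growth plate region of mice treated with vehicle or with a Hedgehog pathway agonist. They are *Dntt*, *Rag1*, *Rag2*, *Vpreb1*, *Vpreb3*, *Igll1*, *Il7r*, *Ebf1*, *Pax5*, and *Bach2*, chosen by name as columns of a table of 16536 genes, and all 10 were in it. Pthrp-mCherry mice carry an mCherry reporter for *Pthlh*, the parathyroid hormone–related protein gene of resting zone chondrocytes. Intraperitoneal DMSO (the vehicle) or SAG, which activates Smoothened and thereby the Hedgehog pathway, was given daily from P30 to P36, and the mice were sacrificed at P38. The study used males and females. The dissected region was digested and live mCherry+CD73+ cells were sorted. Bulk RNA was sequenced, giving 1 library per mouse from 4 DMSO and 4 SAG mice.

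A B-cell precursor in the marrow commits to its lineage under EBF1 and PAX5, 2 transcription factors that switch on B-lineage genes and hold other fates off. Signals through the IL-7 receptor keep it alive and dividing. The RAG1 and RAG2 proteins together cut the immunoglobulin loci for V(D)J recombination, and terminal transferase, the product of *Dntt*, adds bases at the joints. A finished heavy chain is first tested with a surrogate light chain made of VPREB1 and IGLL1, which forms the pre-B cell receptor. *Rag1*, *Rag2*, *Dntt*, *Vpreb1*, and *Igll1* are characteristic of precursors, whereas *Pax5*, *Bach2*, and *Ebf1* stay expressed in mature B cells.

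The libraries held 24971992 to 46593090 counts each, and levels are given as CPM, the usual depth-corrected unit for counts, computed with TMM factors. A count of 0 allows a level of up to 3 counts, which is 0.0670 to 0.114 CPM depending on the library, for counting error only. DMSO replicate 4 stood apart from the rest. Its Spearman correlation with the other 7 libraries was 0.846 to 0.888, against 0.895 to 0.956 among those 7, and it had the fewest detected genes, 14416. The labelled tissue was borne out by chondrocyte genes, with *Col2a1*, the main cartilage collagen, at a mean of 53695 CPM in DMSO and 26432 CPM in SAG, and *Pthlh* and *Nt5e* (CD73) were present in every library. *Ptprc*, which encodes the leukocyte surface protein CD45, was also present in every library, at 179 to 402 CPM in DMSO and 520 to 816 CPM in SAG. The gate named in the methods used mCherry, CD73, and a viability dye.

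The promoters of 4 of the genes are shown because these genes are used together in the same precursor stage and had lower means in SAG. Each run is 300 bases in the direction of the gene, spans the RefSeq start, and lies mostly before it (RefSeq, GRCm38.p6). Capitals mark exact matches, on either strand, to the motif of E2A (CAGGTG), the octamer (ATGCAAAT), Runx (TGTGGTT), Ikaros (TGGGAA), and PU.1/ETS (GAGGAA). *Vpreb1* lies on the minus strand at chr16:16869206-16869505, *Igll1* on the minus strand at chr16:16863936-16864235, *Vpreb3* on the plus strand at chr10:75948050-75948349, and *Rag1* on the minus strand at chr2:101649483-101649782.
Vpreb1: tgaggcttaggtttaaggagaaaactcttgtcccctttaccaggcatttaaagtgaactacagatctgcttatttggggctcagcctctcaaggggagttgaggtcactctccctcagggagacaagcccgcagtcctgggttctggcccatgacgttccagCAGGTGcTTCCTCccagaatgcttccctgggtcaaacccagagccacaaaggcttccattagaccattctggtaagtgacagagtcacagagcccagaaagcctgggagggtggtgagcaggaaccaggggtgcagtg
Igll1: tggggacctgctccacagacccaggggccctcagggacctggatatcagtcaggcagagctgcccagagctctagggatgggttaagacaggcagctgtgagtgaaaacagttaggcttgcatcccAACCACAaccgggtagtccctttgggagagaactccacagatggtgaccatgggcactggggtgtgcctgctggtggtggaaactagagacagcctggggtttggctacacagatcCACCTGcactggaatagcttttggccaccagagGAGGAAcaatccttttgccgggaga
Vpreb3: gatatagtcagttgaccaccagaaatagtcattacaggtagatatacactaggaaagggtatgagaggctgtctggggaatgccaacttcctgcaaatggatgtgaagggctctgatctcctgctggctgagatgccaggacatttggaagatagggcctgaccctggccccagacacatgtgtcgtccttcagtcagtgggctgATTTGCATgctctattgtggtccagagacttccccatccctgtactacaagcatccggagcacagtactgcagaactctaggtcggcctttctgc
Rag1: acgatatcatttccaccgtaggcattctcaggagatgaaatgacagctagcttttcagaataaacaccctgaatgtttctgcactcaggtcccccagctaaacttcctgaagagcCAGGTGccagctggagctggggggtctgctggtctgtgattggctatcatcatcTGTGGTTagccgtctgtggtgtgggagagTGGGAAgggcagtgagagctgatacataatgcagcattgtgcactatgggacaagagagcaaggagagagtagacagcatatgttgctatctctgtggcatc

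*Vpreb1* and *Igll1* are neighbors on chromosome 16, and both windows held an E-box and a GAGGAA match. The *Vpreb1* E-box lay 88 bases before the start and that of *Igll1* 8 bases before it. A shortened EBF motif, TCCCNNGG, matched the *Vpreb1* window at 65 bases before the start (tccctggg, left in lower case), while the full EBF palindrome matched none of the 10 genes' windows. The octamer of *Vpreb3* lay 45 bases before the start. The *Rag1* window held an E-box, a Runx match, and an Ikaros match at 135, 81, and 52 bases before the start. Of 32851 promoters of the same length, the E-box was found in 20.2%, GAGGAA in 28.3%, the shortened EBF motif in 22.6%, its full form in 0.904%, Ikaros in 25.6%, Runx in 5.27%, and the octamer in 1.74%, so that the octamer and Runx matches were the less common kinds. The windows of *Dntt*, *Pax5*, and *Bach2* held none of the motifs searched. A match is a run of letters and not a measured binding site, and the annotated starts used here can differ from the start used in these cells. In another annotation (GENCODE M21), the 1 transcript of *Rag1* did not begin at the RefSeq start used for its distances. At least 1 transcript each of *Vpreb1*, *Igll1*, and *Vpreb3* did begin at theirs.

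All 10 genes had lower mean levels in SAG than in DMSO, by 2.28-fold (*Rag2*) to 49.9-fold (*Dntt*). *Pax5* and *Bach2* fell beyond the threshold of an adjusted p under 0.05 (edgeR quasi-likelihood test, Benjamini-Hochberg over 15421 genes), which is 2 of the 9 genes that passed the filter on low counts. Of all genes tested, 0.266% were lower by the same rule. *Vpreb1* did not pass the filter. None of the 9 was higher by this rule (2.62% of all genes were), nor was any higher with an unadjusted p under 0.05. All 9 had log2 fold changes below 0, as had 54.8% of all genes, and 8 had an unadjusted p under 0.05, against 6.5% of all genes that were lower with such a p. The log2 fold change was below −3 for 7 of the 9, and for 0.655% of all genes. Its median was −3.33 over the 9 genes and −0.08 over all genes. The level was below every DMSO mouse in all 4 SAG mice for 3 of the 10, *Rag1*, *Pax5*, and *Bach2*, and for 3.84% of all genes tested. In bulk RNA, fewer cells of a type and less RNA per cell cannot be told apart.

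**Figure D1:**
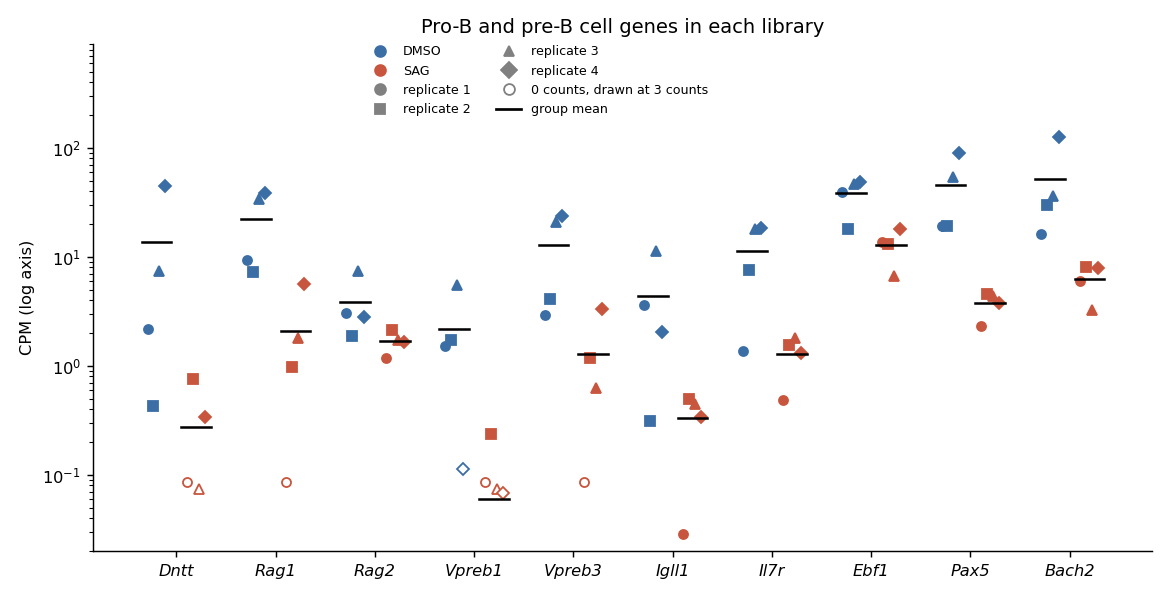
CPM (log axis) of the 10 pro-B and pre-B cell genes in each library, with DMSO in blue, SAG in red, a symbol for each replicate, and black lines for group means; open symbols are counts of 0 drawn at 3 counts. SAG points lie below all DMSO points for *Rag1*, *Pax5*, and *Bach2*, and overlap with DMSO for the other 7 genes.

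Among the transcription factors, *Pax5*, the commitment factor of the B lineage, had the smallest p of the 9 tested genes. It was at 19.4, 19.4, 53.9, and 89.9 CPM in DMSO replicates 1 to 4 and at 2.33, 4.54, 4.33, and 3.76 CPM in SAG replicates 1 to 4. The lowest DMSO mouse was thus more than 4 times the highest SAG mouse, and the DMSO mice differed far more among themselves than the SAG mice. Its log2 fold change was −3.61 ± 0.54 (SE; edgeR adjusted p = 0.0102). Without DMSO replicate 4, the highest library, it was −3.01 with an edgeR adjusted p of 0.00213, and the call held in all 8 fits that left out 1 library.

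*Bach2* encodes a repressor that acts with PAX5 in B-cell precursors and later restrains plasma cell differentiation. Its levels were 16.1, 30.2, 36.02, and 125 CPM in the DMSO mice and 5.95, 8.08, 3.29, and 7.91 CPM in the SAG mice. The groups did not overlap, and DMSO replicate 4 was over 3 times the next highest mouse. The log2 fold change was −3.03 ± 0.60 (SE; edgeR adjusted p = 0.0223), and −2.09 without that mouse (adjusted p = 0.00854). The call was lost when any 1 of 6 other libraries was left out, with edgeR adjusted p of 0.0569 and 0.0595 without DMSO replicates 2 and 3 and 0.0578, 0.0665, 0.0708, and 0.0697 without SAG replicates 1 to 4.

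*Ebf1*, which acts upstream of *Pax5* and is also expressed in stromal cells, was at 39.3, 18.0, 46.8, and 49.0 CPM in DMSO and 13.6, 13.2, 6.65, and 18.1 CPM in SAG. The groups overlapped by a single pair, DMSO replicate 2 and SAG replicate 4, whose levels were nearly equal. Its log2 fold change was −1.57 ± 0.39 (SE; edgeR adjusted p = 0.0576), which missed the threshold, and the adjusted p was 0.0488 without DMSO replicate 4, where edgeR called 3 of the 10 genes and 2.17% of all genes lower. Relative to *Ebf1*, *Pax5* was at 0.493, 1.08, 1.15, and 1.83 counts per count in DMSO and at 0.172, 0.345, 0.652, and 0.208 in SAG, so that the ranges overlapped between DMSO replicate 1 and SAG replicate 3. *Ebf2* and *Ebf3* belong to a list of 9 marrow stroma genes, of which none was called in either direction (median log2 fold change −0.51).

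*Il7r* encodes the chain of the IL-7 receptor that binds the cytokine. It was at 1.38, 7.57, 17.9, and 18.5 CPM in DMSO and 0.489, 1.54, 1.82, and 1.30 CPM in SAG. Only DMSO replicate 1 fell within the SAG range, and the other 3 DMSO mice were at least 4 times the highest SAG mouse. The log2 fold change was −3.13 ± 0.81 (SE; edgeR adjusted p = 0.0667), and the adjusted p was 0.0361 when DMSO replicate 1 was left out.

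Around the receptor, a list of 12 genes covered the ligand, the partner chain, the kinases, the STAT5 factors, and targets of the pathway. It also held another cytokine, *Tslp*, and a chain of its receptor, *Crlf2*. At an unadjusted p under 0.05, 0 were lower and 3 higher (*Mcl1*, *Jak1*, and *Crlf2*). By edgeR's adjusted p, 0 were lower and 1 was higher. The gene that rose was *Mcl1*, a survival gene used in many hematopoietic cells, from 504 ± 40.3 to 868 ± 87.0 CPM (SD, n = 4 per group; log2 fold change 0.78, edgeR adjusted p = 0.0267), and the call held only without DMSO replicate 4 or SAG replicate 1 when single libraries were left out (edgeR adjusted p up to 0.105). *Il2rg*, the common γ chain that pairs with *Il7r*, was at 23.2 ± 8.35 CPM in DMSO and 18.9 ± 4.97 CPM in SAG (SD, n = 4 each), and *Jak1* and *Jak3*, the kinases of the 2 chains, had higher means in SAG. *Il7* itself was at 0.572 ± 0.380 and 0.680 ± 0.735 CPM (SD, n = 4 each). The list median was 0.20, against −0.08 over all genes.

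Of the recombination genes, *Rag1* was at 9.35, 7.23, 34.3, and 38.9 CPM in DMSO and 0, 0.974, 1.82, and 5.61 CPM in SAG. The groups did not overlap, DMSO replicates 3 and 4 were the high mice, and SAG replicate 1 had no count. The log2 fold change was −3.41 ± 1.12 (SE), with an edgeR adjusted p of 0.140 that did not pass.

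*Rag2*, whose product works as a complex with RAG1, moved less. It was at 3.08, 1.90, 7.49, and 2.81 CPM in DMSO and 1.18, 2.14, 1.74, and 1.64 CPM in SAG. Apart from DMSO replicate 3 the mice of both groups lay within 1.18 to 3.08 CPM. Its log2 fold change was −1.19 ± 0.80 (SE; edgeR adjusted p = 0.538), and −0.65 without DMSO replicate 3.

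The ratio of *Rag1* to *Rag2* counts was 3.04, 3.81, 4.58, and 13.9 in DMSO and 0, 0.456, 1.04, and 3.42 in SAG. SAG replicate 4 lay above DMSO replicate 1, and the other SAG mice lay below all DMSO mice. The 2 genes are neighbors on chromosome 2, and both share exonic bases with *B230118H07Rik*, a gene named here after its values were seen, on the same strand for *Rag1* and on the opposite strand for *Rag2*. Of the 31-base words of each gene's transcripts (GENCODE M21), 0.791% of those of *Rag1* and 0.526% of those of *Rag2* occurred in another gene on the same strand. On either strand these shares were 0.791% and 5.79%. Larger shares on either strand were found for *Vpreb1* (36.6%), *Pax5* (7.66%), and *Bach2* (6.37%). *B230118H07Rik* was at 5.81, 9.89, 8.27, and 0.266 CPM in DMSO and 11.0, 4.09, 6.43, and 3.22 CPM in SAG. It was highest in SAG replicate 1, where *Rag1* had 0 counts and *Rag2* had 41, and lowest in DMSO replicate 4, where *Rag1* was highest. Whether reads of the overlap contributed to *Rag2*, or shared words to the counts of *Vpreb1*, *Pax5*, and *Bach2*, was not tested.

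*Dntt* had the lowest fitted fold change of the 9 tested genes, and the widest error. It was at 2.17, 0.424, 7.46, and 45.0 CPM in DMSO and 0, 0.760, 0, and 0.342 CPM in SAG. DMSO replicate 4 alone held most of the group's signal, DMSO replicate 2 lay within the SAG range, and the 2 SAG mice with no count allow levels of up to 0.0862 and 0.0747 CPM. The log2 fold change was −5.61 ± 1.66 (SE; edgeR adjusted p = 0.101). Leaving out DMSO replicate 4 brought it to −3.56 (adjusted p = 0.227).

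RAG cuts are closed by the general end-joining machinery, which most cell types express. Of a list of 13 genes made for this step, 0 were called in either direction by edgeR. At an unadjusted p under 0.05, 0 were lower and 1 was higher. This gene, *Hmgb2*, encodes a DNA-bending protein abundant in dividing cells and is not itself an end-joining factor. *Hmgb2* was at 968 ± 298 CPM in DMSO and 1779 ± 354 in SAG, with no overlap (SD, n = 4 each, edgeR adjusted p = 0.101). It is named because it was the exception. *Xrcc6* (Ku70) was at 42.9 ± 5.77 CPM in DMSO and 32.0 ± 5.61 in SAG, *Prkdc* (the DNA-dependent protein kinase) at 28.9 ± 8.12 and 18.9 ± 3.61, and *Lig4* (the ligase) at 6.17 ± 3.02 and 4.21 ± 0.690 (SD, n = 4 each). The list median was −0.42, and 8 of the 13 had log2 fold changes below 0, as had 54.8% of all genes.

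Of the surrogate light chain genes, *Vpreb1* had 65, 77, 182, and 0 counts in DMSO and 0, 10, 0, and 0 in SAG, or 1.52, 1.72, 5.50, and 0 CPM against 0.238 CPM in the single SAG mouse with counts. DMSO replicate 4, the highest DMSO mouse for 7 of the 10 genes, thus had none. With no filter on low counts the log2 fold change was −5.14 (edgeR adjusted p = 0.264).

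*Vpreb1* has a near-identical copy, *Vpreb2*, which was not among the genes of the table. The coding sequences (GENCODE M21) are 429 bases long each and differ at 9 bases (97.9% identical). Of the 31-base words of *Vpreb1*, 30.2% occur in another gene on the same strand. The stretch from base 308 to base 387 of the coding sequence holds 5 of the 9 differences and is shown with them in capitals.
Vpreb1: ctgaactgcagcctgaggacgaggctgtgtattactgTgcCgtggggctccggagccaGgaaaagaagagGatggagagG
Vpreb2: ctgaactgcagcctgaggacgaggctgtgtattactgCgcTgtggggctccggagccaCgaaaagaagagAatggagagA

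How the counting shared reads between such copies is not given in the sources used here, and the *Vpreb1* counts are uncertain for that reason. *Igll1*, the λ5 chain, showed no such shared words. It was at 3.64, 0.313, 11.4, and 2.05 CPM in DMSO and 0.0287, 0.499, 0.448, and 0.342 CPM in SAG, where the lowest value is 1 count. DMSO replicate 3 was the high mouse and DMSO replicate 2 lay within the SAG range. The log2 fold change was −3.70 ± 1.29 (SE; edgeR adjusted p = 0.167).

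*Vpreb3*, a relative of the surrogate light chain that stays inside the cell, was at 2.91, 4.11, 21.1, and 23.7 CPM in DMSO and 0, 1.19, 0.623, and 3.31 CPM in SAG. Only SAG replicate 4 reached the DMSO range, and DMSO replicates 3 and 4 were high, as they were for *Rag1*. Its log2 fold change was −3.33 ± 1.19 (SE; edgeR adjusted p = 0.180).

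**Figure D2:**
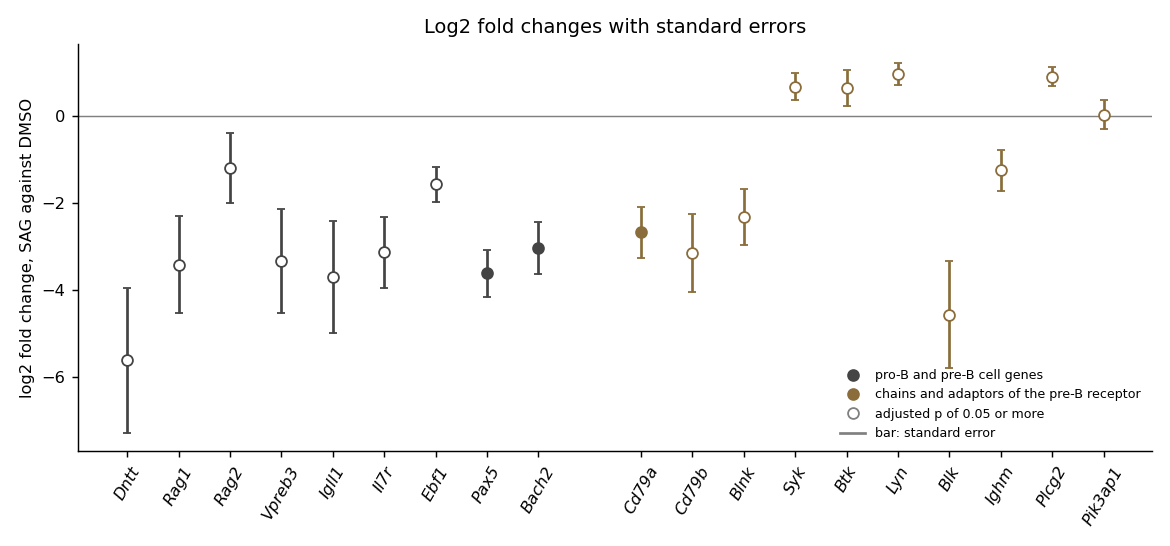
Log2 fold changes of SAG against DMSO with standard errors (edgeR) for the 9 tested pro-B and pre-B cell genes (dark) and 10 chains and adaptors of the pre-B cell receptor (brown); filled points have an adjusted p under 0.05. *Pax5*, *Bach2*, and *Cd79a* are filled, and *Syk*, *Btk*, *Lyn*, and *Plcg2* lie above 0.

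Per kilobase of exon, the highest mean level in DMSO was that of *Vpreb3*, at 15.1 CPM per kb, followed by *Dntt* at 6.01, *Bach2* at 5.21, *Pax5* at 5.15, *Ebf1* at 3.92, *Rag1* at 3.40, *Il7r* at 2.43, *Igll1* at 2.00, *Vpreb1* at 1.82, and *Rag2* at 1.12. In SAG the order ran from *Vpreb3* at 1.49 CPM per kb through *Ebf1* at 1.32, *Bach2* at 0.635, *Rag2* at 0.489, *Pax5* at 0.423, *Rag1* at 0.318, *Il7r* at 0.276, *Igll1* at 0.152, and *Dntt* at 0.120 to *Vpreb1* at 0.0496. *Ebf1* and *Rag2*, which had the smallest fold changes, thus moved up the order. The place of *Dntt* in DMSO rested on DMSO replicate 4. Without that library its mean was 1.46 CPM per kb, ninth of the 10, and *Ebf1* (3.56) and *Pax5* (3.49) followed *Vpreb3* (10.9). In both groups the ranges of neighbors in the order overlapped across mice. The genes were measured in the same libraries, however, and some neighbors kept their order in every mouse. *Vpreb3* was above *Dntt* in every DMSO mouse, and *Ebf1* was above *Bach2* in every SAG mouse. Others did not, as with *Vpreb3* (0) and *Ebf1* (1.39 CPM per kb) in SAG replicate 1. Differences between adjacent ranks were not tested.

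The mice differed in the same direction for most of the genes. DMSO replicate 4 was the highest DMSO mouse for 7 of the 10 and DMSO replicate 3 for the other 3 (*Rag2*, *Vpreb1*, and *Igll1*). SAG replicate 1 was the lowest SAG mouse for 8 of the 10, ties at 0 included. Over the 8 libraries, *Rag1* was most like *Vpreb3* (Pearson r = 0.980 of log2 CPM), *Rag2* most like *Igll1* (r = 0.955), and *Pax5* most like *Bach2* (r = 0.931). After the group means were subtracted these were 0.957 for *Rag1* with *Vpreb3* and 0.915 for *Rag2* with *Igll1*, while *Rag2* with *Bach2* was at −0.00252. These are descriptions over 8 points that share library and group.

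The genes outside the 10 whose log2 CPM was most like their mean over the 8 libraries were *Gpam* (r = 0.968), *Pmpca*, *Tomm40*, *Garnl3*, *Hsf2*, *Irf4* (r = 0.957), *S1pr2*, *Trim28*, *Gcdh*, and *Asb18* (r = 0.947). *Irf4*, a factor of pre-B cell differentiation, was at 32.8 ± 29.7 CPM in DMSO and 3.92 ± 2.26 in SAG (SD, n = 4 each; log2 fold change −3.06, edgeR adjusted p = 0.0539). Within groups, after the group means were subtracted, the 10 most similar genes were *Mmp9* (r = 0.985), *Sgpl1*, *Bin2*, *Isy1*, *Traf3ip3*, *Aldh1l1*, *S100a9* (r = 0.962), *Vmn1r80*, *S100a11*, and *Retnlg* (r = 0.954). *Mmp9*, *S100a9*, and *Retnlg* are neutrophil markers, and all 3 rose in SAG (log2 fold changes 2.24, 2.00, and 2.01, edgeR adjusted p = 0.0102 each), while the B-cell precursor genes had lower means. The 10 were picked from all tested genes for their high r, so the likeness of these 3 neutrophil genes within groups is a description only. Between the groups their direction was opposite to that of the precursor genes.

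The pre-B cell receptor signals through partners of the surrogate light chain. Of 10 such genes, 1 fell and 0 rose by edgeR's adjusted p, and 5 were lower and 3 higher at an unadjusted p under 0.05 (median log2 fold change −0.61). *Cd79a*, a signaling chain, was at 9.93, 11.9, 36.7, and 55.4 CPM in DMSO and 4.77, 5.54, 2.34, and 5.25 CPM in SAG, with no overlap (log2 fold change −2.67, edgeR adjusted p = 0.0329). With each library left out in turn the edgeR call held in 2 of 8 fits for *Cd79a* (without DMSO replicate 1 or 4; adjusted p up to 0.105). The groups did not overlap for *Cd79b*, *Blnk*, and *Blk* either, with log2 fold changes of −3.15, −2.31, and −4.56 and edgeR adjusted p of 0.0890, 0.0822, and 0.0743. With *Cd79a*, 4 of the 10 were thus below every DMSO mouse in every SAG mouse, as were 3.84% of all genes tested. In the other direction, 2 of the 10 (*Lyn* and *Plcg2*) were above every DMSO mouse in every SAG mouse.

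The 3 members of this list that were higher at an unadjusted p under 0.05, *Lyn*, *Plcg2*, and *Syk*, are shared with myeloid cells. The groups overlapped for *Syk*. *Btk* and *Pik3ap1*, of the same list, had log2 fold changes of 0.64 and 0.03 (edgeR adjusted p = 0.515 and 0.986). *Lyn* was at 178 ± 62.3 CPM in DMSO and 348 ± 77.0 in SAG, *Plcg2* at 177 ± 47.4 and 331 ± 57.6, and *Syk* at 193 ± 84.5 and 308 ± 90.5 (SD, n = 4 each), with edgeR adjusted p of 0.0740, 0.0551, and 0.309. *Ighm*, the μ heavy chain, was at 34.8, 53.4, 111, and 163 CPM in DMSO and 15.3, 47.2, 39.3, and 50.4 CPM in SAG. Its groups overlapped, and its log2 fold change was −1.25 (edgeR adjusted p = 0.217).

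Per *Pax5* count, *Ighm* was at 1.80, 2.75, 2.05, and 1.82 counts in DMSO and 6.58, 10.4, 9.07, and 13.4 in SAG. Every SAG mouse lay above every DMSO mouse, which was also so for 76.8% of all genes, since *Pax5* fell more than most. The ratio was read after both genes' values were seen.

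**Figure D3:**
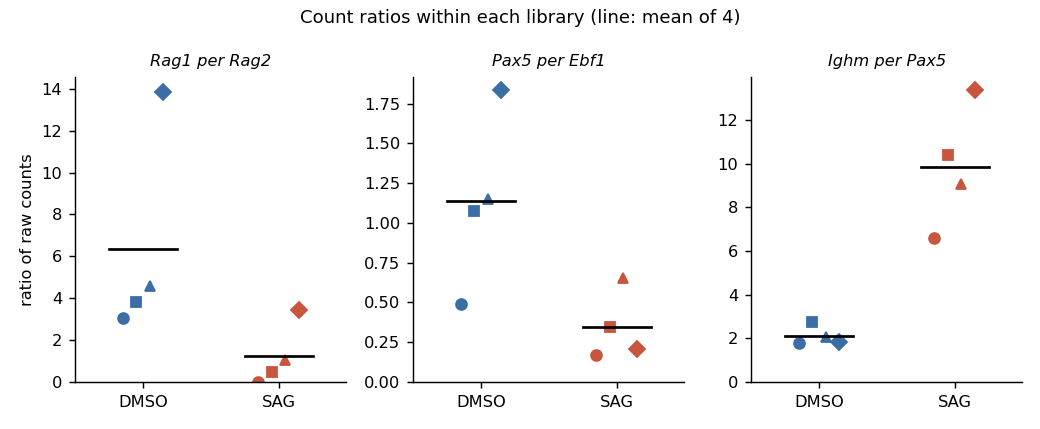
Ratios of raw counts within each library, with symbols for replicates 1 to 4 and lines for the mean of 4 mice. *Rag1* per *Rag2* and *Pax5* per *Ebf1* are lower in most SAG mice with overlap, and *Ighm* per *Pax5* is 1.80 to 2.75 in DMSO and 6.58 to 13.4 in SAG.

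Among 11 genes that PAX5 is known to activate, 2 fell (*Cd79a* and *Cd72*), 0 rose, and at an unadjusted p under 0.05 7 were lower and 2 higher (median −1.39). *Cd79a* also stands in the receptor list. *Cd72*, an inhibitory coreceptor, went from 33.4 ± 26.5 to 4.51 ± 2.24 CPM (SD, n = 4 per group; log2 fold change −2.89, edgeR adjusted p = 0.0300). Of 19 further transcription factors of early B-cell development, only *Sox4* fell by this test, from 60.1 ± 17.3 to 17.6 ± 6.56 CPM (SD, n = 4 per group; log2 fold change −1.77, edgeR adjusted p = 0.0146), and 0 rose. With each library left out, *Cd72* was called in 3 of 8 fits (without DMSO replicate 1 or 4 or SAG replicate 1; edgeR adjusted p up to 0.111) and *Sox4* in 6 of 8 (not without DMSO replicate 3 or SAG replicate 2; edgeR adjusted p up to 0.0562). *Sox4* and most other factors of this list are not restricted to B cells. Of the 19, 3 were below every DMSO mouse in every SAG mouse (*Sox4*, *Foxo1*, and *Pou2af1*), as were 3.84% of all genes tested. *Pou2af1* was at 10.2 ± 11.6 CPM in DMSO and 1.28 ± 0.761 in SAG (SD, n = 4 each; log2 fold change −2.98, edgeR adjusted p = 0.101). *Foxo1*, which drives *Rag* expression, did not overlap between groups (110 ± 18.6 and 52.7 ± 22.5 CPM; edgeR adjusted p = 0.0799), *Tcf3* (E2A) was at 136 ± 63.0 and 103 ± 20.1 CPM, and *Ikzf1* (Ikaros) at 103 ± 37.9 and 167 ± 44.2 CPM (SD, n = 4 each).

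Surface proteins of lymphoid precursors were mixed, with 1 of 11 lower (*Cd72* again), 0 higher, and a median of −0.34. At an unadjusted p under 0.05, 2 were lower (*Cd72* and *Ly6d*) and 3 higher (*Cd24a*, *Bst1*, and *Cxcr4*). *Kit* and *Cd24a*, which precursors share with other marrow cells, had higher means in SAG. In DMSO and SAG, *Kit* was at 17.0 ± 3.86 and 26.7 ± 15.5 CPM, and *Cd24a* at 249 ± 121 and 404 ± 89.3 CPM (SD, n = 4 each). *Cxcr4* was at 38.2 ± 10.8 and 80.2 ± 38.7 CPM (SD, n = 4 each; log2 fold change 1.07, edgeR adjusted p = 0.120). *Ly6d*, an early B-lineage marker, was at 13.7 ± 13.7 CPM in DMSO and 0.909 ± 0.661 in SAG (SD, n = 4 each; log2 fold change −3.92, edgeR adjusted p = 0.0602).

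Markers of later B cells and of other lymphoid cells were not called. Of 11 mature B-cell markers 0 were lower or higher by edgeR's adjusted p, and at an unadjusted p under 0.05 2 were lower and 1 was higher (median −0.97). *Ms4a1* (CD20) was at 11.1 ± 11.0 CPM in DMSO and 1.33 ± 1.03 in SAG (SD, n = 4 each; edgeR adjusted p = 0.245). Of 5 plasma cell markers tested 0 were called (median −1.12, 1 lower and 0 higher at an unadjusted p under 0.05), of 11 T and NK cell markers 0 (median −0.56, 2 lower and 1 higher), and of 5 plasmacytoid dendritic cell markers 0 (median 0.01, 0 lower and 1 higher). The 2 markers higher in the mature B-cell and the T and NK cell lists were *Cd37* and *Cd3e* (edgeR adjusted p = 0.168 and 0.134). Both were above every DMSO mouse in all 4 SAG mice, but *Cd3e* was at only 0 to 0.0759 CPM in DMSO. In the other direction, *Mzb1* (plasma cell list) and *Cd2* and *Lck* (T and NK cell list) were below every DMSO mouse. So were 3.84% of all genes tested. The log2 fold changes of these 3 were −5.00, −2.79, and −1.94 (edgeR adjusted p = 0.122, 0.158, and 0.408). Whether the precursor genes fell more than these lists was not tested.

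*Ptprc* rose from 272 ± 95.6 to 651 ± 131 CPM (SD, n = 4 per group; log2 fold change 1.26, edgeR adjusted p = 0.0255), with no overlap, and the call held in 2 of 8 fits that left out 1 library (without DMSO replicate 4 or SAG replicate 1; edgeR adjusted p up to 0.105). Of 15 neutrophil markers 11 rose and 0 fell, and their summed level was 5262 to 15434 CPM in DMSO and 29261 to 46559 CPM in SAG. Of 12 chondrocyte markers 0 were called, 11 were lower at an unadjusted p under 0.05, and the sum was 44072 to 100817 CPM in DMSO and 17167 to 48607 CPM in SAG. None of the marker genes of either list was at 0 in all libraries. The part of these shifts in the precursor genes' values was not tested beyond the scalings that follow.

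**Figure D4:**
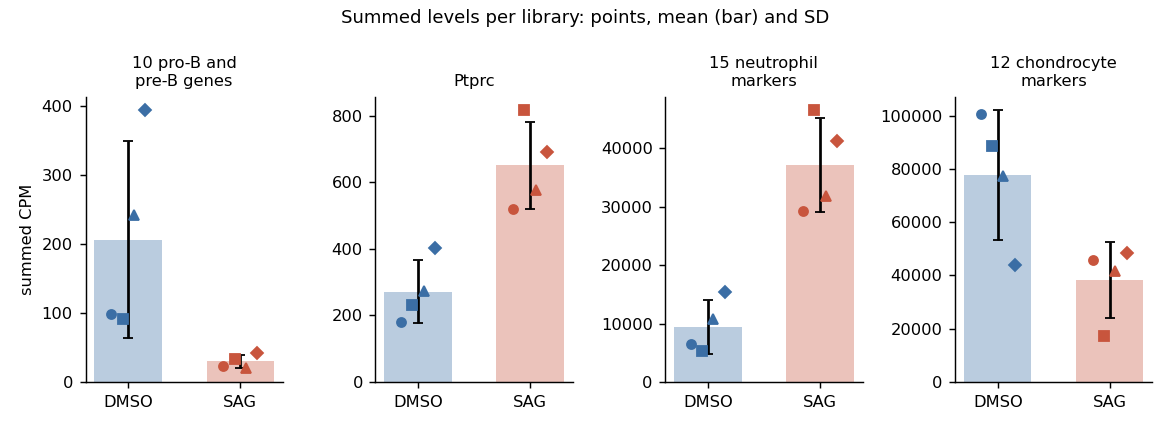
Summed CPM in each library (points, a symbol per replicate) with the group mean (bar) and SD for the 10 pro-B and pre-B cell genes, *Ptprc*, 15 neutrophil markers, and 12 chondrocyte markers. The precursor genes sum to 90.9 to 395 CPM in DMSO and 20.7 to 42.4 CPM in SAG, while *Ptprc* and the neutrophil markers are higher in every SAG mouse.

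As a share of the *Ptprc* count, *Pax5* was 8.41% to 22.3% in DMSO and 0.447% to 0.751% in SAG, *Bach2* 9.003% to 31.003% and 0.570% to 1.15%, *Ebf1* 7.82% to 22.0% and 1.15% to 2.63%, and *Rag1* 3.14% to 12.5% and 0 to 0.813%. In this measure 9 of the 10 genes, all but *Vpreb1*, were lower in every SAG mouse than in every DMSO mouse, as were 35.5% of all genes tested. With libraries scaled to the *Ptprc* count, edgeR called all 9 tested genes lower, where 48.6% of all genes were lower and the median of all genes was −1.42. With libraries scaled to the summed chondrocyte marker count the median of all genes was 1.07, 0.013% of all genes were lower, and none of the 9 was called. On that scale *Pax5* was at −2.67 (edgeR adjusted p = 0.0554), *Bach2* at −2.18 (0.0904), and *Rag2* at 0.09.

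DESeq2's Wald test, applied to the same counts, called 6 of the 10 genes lower (*Dntt*, *Vpreb3*, *Il7r*, *Ebf1*, *Pax5*, and *Bach2*), against 3.35% of all genes. It gave no adjusted p for *Rag2*, *Vpreb1*, and *Igll1*. Limma voom with quality weights called *Pax5* and *Bach2*, as edgeR did, against 2.58% of all genes. With the test limited to genes with at least 10 counts in every library, which 5 of the 10 had, edgeR called 4 (*Il7r*, *Ebf1*, *Pax5*, and *Bach2*), against 0.723% of all genes. With a score of the neutrophil markers as a covariate it called 3 of 9 (*Dntt*, *Pax5*, and *Bach2*), against 0.0973% of all genes, and the same 3 with *Ddx3y*, a Y-linked gene, as a covariate, against 0.22% of all genes. Nothing in the labels says whether mice shared a litter or a day, so p-values measure the spread between these mice.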

How the data were processed

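Raw counts, whole numbers for each gene in each library with no normalization, were deposited by the authors. The submitters' processing notes name kallisto, DESeq2, and the build GRCm38 without roles or versions, and the kit is a stranded total RNA kit. How transcripts were summed and whether kallisto's estimates were rounded is not given in the sources used here. Libraries were matched to treatment by name, with 0 unmatched. Of 16536 gene symbols 16524 were found in GENCODE M21 (GRCm38), which gave coordinates and exon lengths, and all 10 genes matched it and the RefSeq promoter table.

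The groups were compared with edgeR 4.0.16 in R 4.3.3 (filterByExpr, which kept 15421 genes, TMM, robust quasi-likelihood test, Benjamini-Hochberg adjustment over all genes, threshold 0.05). Log2 CPM used a prior count of 2. The standard error is the log2 fold change divided by the square root of F. DESeq2 1.42.0, limma 3.58.1, other scalings, filters, and covariates, a replicate block, and each library left out in turn were alternatives. Libraries held 24971992 to 46593090 counts.

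The 10 genes and all lists were chosen with earlier results of these data known. Named genes were the 10, called list members and up to 6 others per list in list order, the genes most like the 10, and scaling genes. *Ighm*, *Plcg2*, *Pik3ap1*, *Hmgb2*, *Ly6d*, *Bst1*, *Cxcr4*, *Pou2af1*, *Tslp*, *Crlf2*, and *Lck* lie beyond that order and were named after their values were seen. *B230118H07Rik* and *Vpreb2* were named for shared sequence, *B230118H07Rik* also after its values were seen. 1 gene of the lists is not reported here and was left out of their counts.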

Additional observations from a re-analysis of the deposited data

Results flagged for a closer look

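In groups of 4 mice, a value stood apart when its gap to the nearest mouse, divided by the range of the group, exceeded Dixon's 95% critical value. Of 62 combinations of a gene or summed list with a group, 4 did, and chance alone gives about 1 in 20. The combinations are not independent, since genes recur in lists and *Ptprc* entered as a gene and as a list of its own. *Dntt* in DMSO replicate 4 was at 45.0 CPM, against 7.46 in the next mouse (ratio 0.842). *Vpreb1* in SAG replicate 2 was at 0.238 CPM, against 0 in the other SAG mice. With all others at 0, any count gives a ratio of 1, so this flag says nothing about its size. The summed level of the 19 further early B-cell transcription factors was 1404 CPM in SAG replicate 2, against 1033 in the next mouse, and the summed T and NK cell markers were at 59.9 CPM in SAG replicate 3, against 55.9.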

How the results depend on the processing

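Of 174 alternative values with an adjusted p for the 9 tested genes (DESeq2 gave none for *Rag2* and *Igll1*), 148 kept direction and side of the threshold, 17 passed it in addition, 8 lost it, and 1 reversed, *Rag2* at 0.0856 on the log2 scale with libraries scaled to the summed chondrocyte marker count. The count of the genes called lower (2) was 6 with DESeq2, 4 of 5 tested with at least 10 counts in every library, 9 with *Ptprc* scaling, 0 with chondrocyte scaling, and 1 to 3 with each library left out. The count below every DMSO mouse (3 of 10) was 9 with *Ptprc* scaling, 0 with chondrocyte scaling, and 3 to 7 with each library left out (5 without DMSO replicate 1, 7 without DMSO replicate 2, and 5 without SAG replicate 2 or 4). Of all genes, 3.84% did so with all libraries, and in those 4 sets 5.32%, 5.47%, 4.75%, and 5.23%. Without DMSO replicate 3 or 4 the count was 4 of the 10, against 6.16% and 10.2% of all genes. Without SAG replicate 1 or 3 it was 3, against 6.17% and 5.12%. The share of all genes was 35.5% with *Ptprc* scaling and 0.0778% with chondrocyte scaling. Over all genes, 41 were lower and 404 higher. With DESeq2 these were 413 and 812, with limma voom 398 and 995, with *Ptprc* scaling 7489 and 39, with the neutrophil marker score as a covariate 15 and 0, and with each library left out 4 to 343 and 80 to 1017 (343 and 1017 without DMSO replicate 4). Genes lower were 87 with at least 10 counts in every library and 2 with chondrocyte scaling. The cause was not tested. With the neutrophil score, 75.8% of which treatment explained, or *Ddx3y*, a Y-linked gene, as a covariate, *Dntt*, *Pax5*, and *Bach2* were called. A replicate block called *Pax5* and *Bach2* and left 18 genes lower overall and 334 higher. Mice with the same number deviated together weakly if at all (correlations 0.0102 to 0.120). For mice with different numbers the correlations were −0.117 to 0.0840. With so few mice per group these values cannot decide whether the numbers pair them. Genes with few counts, such as *Vpreb1*, are limited by depth.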
